A study of Mus musculus with 6 samples.

Results

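The miRNA gene rows described here are array measurements assigned to a single miRNA gene whose mean log2 expression over all 6 arrays was at least 6.0, in mouse embryonic stem cells (ESCs) that cannot make canonical miRNAs. They comprise 150 of the 22180 genes with a row of their own. A single-gene row exists for 472 miRNA genes, that is, symbols of Mir and a number. Of these, 28 belong to the Mir297, Mir302, Mir466, Mir467 and Mir669 families, which were left out, and 294 had a mean below 6.0. The members were thus chosen on their level over both groups and not on the difference between groups, so levels are given as a description and differences were tested. Of the 150, 137 reached 6.0 in the mean of each group, 7 only in the control mean and 6 only in the miR-302 mean. The 7 were Mir181b-2, Mir717, Mir5124a, Mir1981, Mir29a, Mir3097 and Mir20b, and they met the rule through the control group, where they are high. The 6 were Mir345, Mir1931, Mir3080, Mir30a, Mir5120 and Mir219a-1, which met it through the miR-302 group. The miRNA genes just below the threshold were Mir3093 at 5.975, Mir3081 at 5.937, Mir375 at 5.935 and Mir30c-2 at 5.922. Those just above were Mir3097 at 6.003, Mir20b at 6.005, Mir5124a at 6.012 and Mir3070a at 6.015.

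All 6 samples were Dgcr8-/- ESCs. The 3 control samples bore a control hairpin, and the 3 miR-302 samples a hairpin that supplies a mimic of miR-302, a miRNA of pluripotent cells. The samples of each group are described as independent and biological, and no passage, clone, age or strain is given in the sources used here. Total RNA was measured on single-colour arrays, and the values are log2 expression from RMA (robust multi-array average). Rows that list several genes were not analysed here. These include 136 rows that name a miRNA gene beside other genes and the row of Dgcr8, so the knockout was not checked.

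A miRNA begins as a hairpin within a long primary transcript, often in an intron of a host gene or in a cluster with other hairpins. The nuclease Drosha and its RNA-binding partner DGCR8 cut the hairpin out, and Dicer trims it to a mature miRNA whose bases 2 to 8, the seed, pair with target mRNAs. In cells without DGCR8 the primary transcript of a canonical miRNA is not cut. The miRNA gene rows are therefore read here as RNA of the primary transcript or of the host gene. What each row detects, and whether each member is canonical, was not tested.

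The mature sequences below show how the members that the results turn on are related to each other and to miR-302. They come from RefSeq (GRCm38.p6), are written 5′ to 3′, and carry the seed in capitals. The table held mature sequences for 140 of the 150 members, 239 sequences with 213 distinct seeds, and 0 members had a seed of a miR-302 mature miRNA. The first sequence is a miR-302 and belongs to no member. The labels do not say which miR-302 the hairpin supplies.
miR-302b-3p: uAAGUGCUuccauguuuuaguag
miR-290a-3p: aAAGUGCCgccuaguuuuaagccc
miR-17-5p: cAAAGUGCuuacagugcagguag
miR-20a-5p: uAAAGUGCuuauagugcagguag
miR-20b-5p: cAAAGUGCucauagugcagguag
miR-106b-5p: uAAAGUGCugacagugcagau
miR-18a-5p: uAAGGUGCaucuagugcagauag
miR-18b-5p: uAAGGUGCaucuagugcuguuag
miR-363-3p: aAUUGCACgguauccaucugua
miR-92b-3p: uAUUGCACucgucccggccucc
miR-181a-5p: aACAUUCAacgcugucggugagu
miR-181b-5p: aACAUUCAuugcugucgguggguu
miR-181c-5p: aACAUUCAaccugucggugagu
miR-181d-5p: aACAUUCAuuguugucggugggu
miR-130a-3p: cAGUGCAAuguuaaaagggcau
miR-130b-3p: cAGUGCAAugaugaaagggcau
miR-301a-3p: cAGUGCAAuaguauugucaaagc
miR-31-5p: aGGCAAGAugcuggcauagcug
In all, 19 seeds were shared by more than 1 member. Mir17, Mir20a, Mir20b and Mir106b share AAAGUGC, and their seeds, like that of Mir290a, contain AAGUGC, the first 6 bases of the miR-302b-3p seed. In GRCm38.p6 the sequence of miR-17-5p lies at chr14:115043684-115043706 on the plus strand and that of miR-20b-5p at chrX:52742159-52742181 on the minus strand. The sequence of miR-181b-5p lies at chr2:38853845-38853868 on the plus strand, that of miR-181c-5p at chr8:84178924-84178945 on the minus strand and that of miR-31-5p at chr4:88910614-88910635 on the minus strand.

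Mir31 was the member with the largest rise when miR-302 was supplied, and Mir181b-2, Mir717 and Mir5124a had the largest falls. These 3 and Mir1981, the 4 called among the 7 rows that reached 6.0 only in the control mean, were selected through the group in which they are high. Among the 137 rows at 6.0 or above in each group mean, 20 changed, 5 higher and 15 lower. Of the 150 members, 24 (16%) changed at a limma adjusted p under 0.05: 5 were higher with miR-302 (3.33%) and 19 were lower (12.7%). Over all 22180 genes tested, 16.4% changed, 7.18% higher and 9.25% lower. Among the 11524 genes with a mean of at least 6.0, 26.5% changed. The latter genes are not matched in level, with a median of 8.37 against 7.21 for the members. The share of changed members was thus near that of all genes. The arrays of the groups did not overlap for 50 members (33.3%), 34 lower and 16 higher, against 35.8% of all genes. Among the 294 miRNA genes below 6.0, 17 changed (5.78%).

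Most members differed little. The median difference, miR-302 minus control, was -0.03 for the members and 0.01 for all genes, and 96 of the 150 differed by less than 0.25 in either direction. The differences ran from -1.32 to 1.55, and 4 members reached a size of 1. The median spread between replicates (pooled SD) was 0.149 for the members, against 0.131 for all genes and 0.099 for genes at or above 6.0. Of the 14 rows of the left-out families at or above 6.0, 13 were higher, and the median difference was 2.74. Their mean per array was 6.42 to 6.71 in controls and 8.89 to 9.14 with miR-302. Their direction was thus open to the choice of rows by level, and their difference from the members was not tested.

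**Figure D1:**
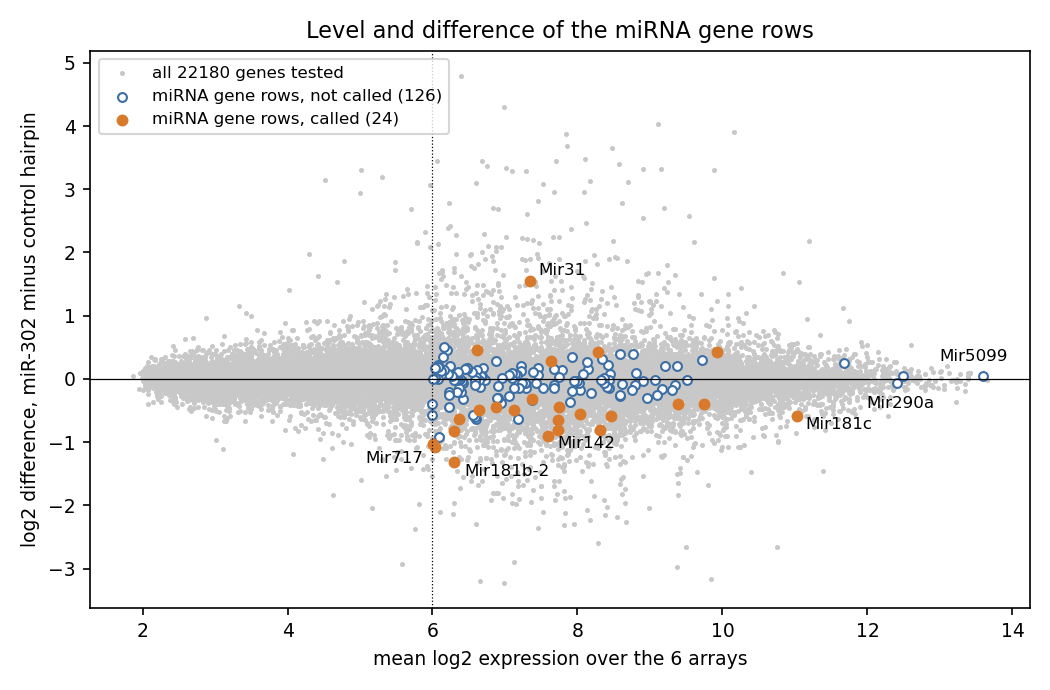
Mean log2 expression over the 6 arrays (x axis) against the log2 difference, miR-302 minus control hairpin (y axis). Grey points are all 22180 genes tested, open circles the 126 members that were not called and filled circles the 24 that were, and the dotted line marks the level of 6.0. Mir31 stands at 1.55 and Mir181b-2 at -1.32, and most members lie near 0.

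The arrays were alike in level, with medians between 5.60 and 5.62. The array of miR-302 replicate 1 stood somewhat apart: over all genes it correlated at 0.9901 and 0.9902 with the other miR-302 arrays, which correlated at 0.9965 with each other. With the control arrays, replicate 1 correlated at 0.9862 to 0.9870, and the other miR-302 arrays at 0.9814 to 0.9830. Why replicate 1 stood nearer the controls was not tested. Without miR-302 replicate 1, 30 members were called (20%), 9 higher and 21 lower, and 20 of the 24 were among them. The same fit called 24.3% of all genes. Of 10 ESC markers 0 were called, with a mean level per array of 10.51 to 10.54 in controls and 10.37 to 10.67 with miR-302. Their levels ran from 5.54 for Dppa5a to 12.80 for Nanog. The groups were apart for 5 of them, 2 lower and 3 higher with miR-302. Of 8 trophectoderm markers 6 rose and 0 fell, with a mean of 5.86 to 5.96 in controls and 7.12 to 7.85 with miR-302. Of 7 primitive endoderm markers 3 rose and 1 fell (6.27 to 6.29 in controls, 6.42 to 6.58 with miR-302), and of 10 fibroblast markers 1 rose and 1 fell (5.28 to 5.33 in controls, 5.40 to 5.55 with miR-302). Over all genes, 7.18% rose and 9.25% fell. The part of the marked cell types in the values of the miRNA gene rows was not tested. In bulk samples, fewer cells of a type and less RNA per cell cannot be told apart.

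Mir31 belongs to a miRNA studied chiefly for tumour cell invasion and differentiation. Its level was 6.43, 6.51 and 6.75 in the control arrays and 7.51, 8.47 and 8.37 with miR-302. All 3 miR-302 arrays lay above all controls, and miR-302 replicate 1 was the lowest of them. The rise was 1.55 (SE 0.25), or 2.93-fold, with a limma adjusted p of 0.00909, and it ran from 1.38 to 1.86 in the leave-one-out fits, which omit 1 array at a time. The gene lies within Gm49890, which has no row of its own.

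The other 4 rises were smaller. Mir1949 went from 9.72 ± 0.08 to 10.15 ± 0.09 (SD, n = 3), a rise of 0.43. Mir674 went from 8.07 ± 0.05 to 8.50 ± 0.09 (SD, n = 3), also a rise of 0.43. Mir1963, inside the muscle calcium channel gene Ryr1, went from 6.39 ± 0.11 to 6.83 ± 0.19 (SD, n = 3). The groups of these 3 rows did not overlap, but Mir1963 lost its call in 5 of the 6 leave-one-out fits. Mir3091 rose by 0.29 from 7.50 ± 0.09 (SD, n = 3), with a limma adjusted p of 0.0477, and lost its call in each of the 6 leave-one-out fits.

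**Figure D2:**
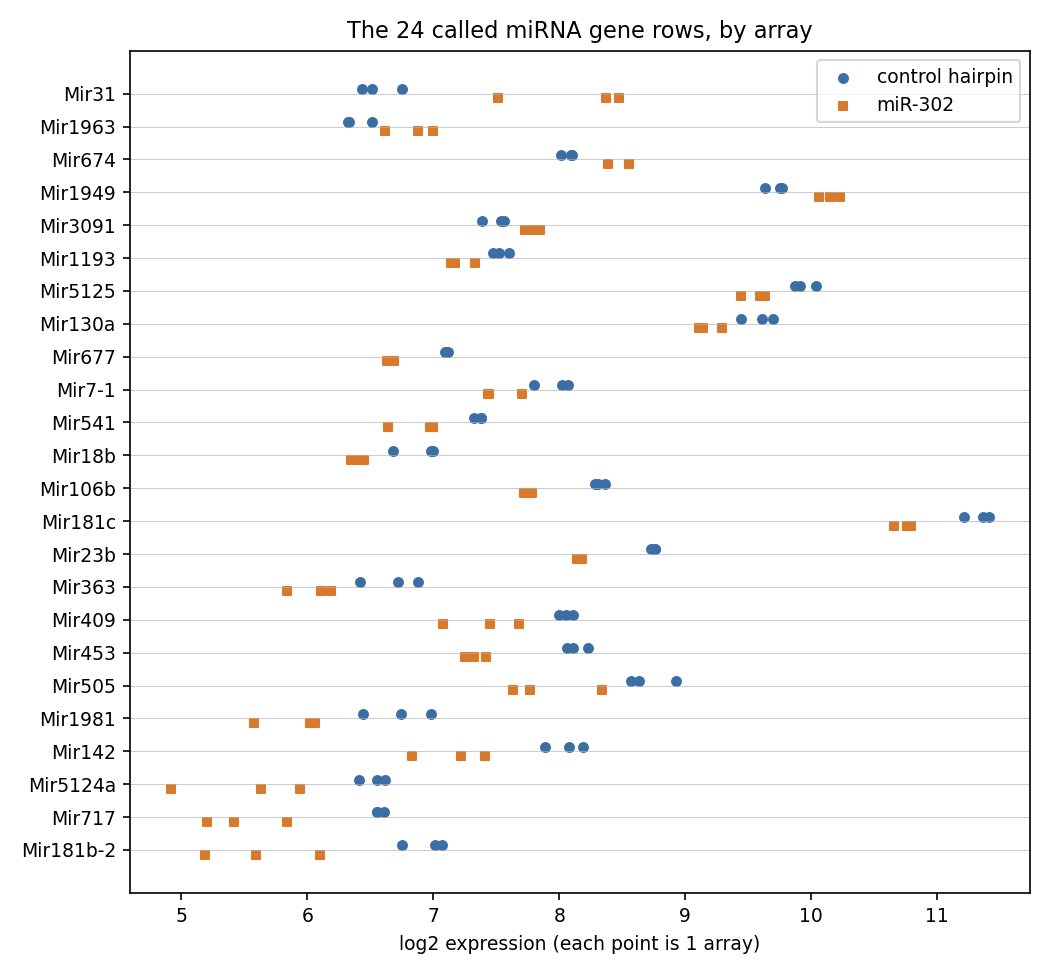
Log2 expression (x axis) of the 24 called members (y axis, ordered by difference), with each circle a control hairpin array and each square a miR-302 array. For every member shown the 3 squares lie on 1 side of the 3 circles, and the miR-302 squares of Mir31, Mir5124a and Mir181b-2 are spread the widest.

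The Mir181 genes make miRNAs with a common seed that are known for tuning lymphocyte signalling. At the locus of Mir181a-2 and Mir181b-2 on chromosome 2, Mir181b-2 read 7.01, 6.75 and 7.07 in controls and 5.19, 6.10 and 5.59 with miR-302. All miR-302 arrays were below all controls, and the fall was 1.32 on the log2 scale (SE 0.22, 2.49-fold, limma adjusted p = 0.0106). Mir181b-2 reached 6.0 only in the control mean. Mir181a-2 read 7.20, 6.79 and 6.76 in controls and 6.18, 6.60 and 6.09 with miR-302. Its groups were also apart, but the difference of -0.63 (SE 0.17) missed the threshold with a limma adjusted p of 0.0533. Both genes lie within Nr6a1os on the same strand, which has no row of its own. Nr6a1, which contains them on the other strand, had a difference of 0.48 that was not called either.

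At the second Mir181 locus, on chromosome 8, the members differed from each other in call. Mir181c read 11.21, 11.41 and 11.36 in controls and 10.66, 10.76 and 10.79 with miR-302. This was a fall of 0.59 on the log2 scale (SE 0.08, limma adjusted p = 0.00564) and was called in all 6 leave-one-out fits. Its neighbour Mir181d read 7.19, 7.34 and 7.28 in controls and 7.56, 6.99 and 7.06 with miR-302. The groups of Mir181d overlapped, and its difference was -0.07 (SE 0.15). The difference between the neighbours was not tested.

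The Mir17 family lies in 3 clusters and is known for promoting cell cycle entry and survival. In the Mir17 cluster on chromosome 14, Mir17, Mir18, Mir19a and Mir20a had differences of -0.17 to -0.04, and 0 of the 4 were called. Mir17 read 8.73, 8.86 and 8.92 in controls and 8.67, 8.77 and 8.79 with miR-302. Mir20a read 9.19, 9.46 and 9.50 in controls and 9.22, 9.19 and 9.23 with miR-302. The groups overlapped in all 4 rows.

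In the Mir106a cluster on chromosome X, the groups of all 3 members were apart, and all were lower with miR-302. Over all genes the groups were apart for 35.8%, and the difference between the clusters was not tested. Mir363 read 6.72, 6.88 and 6.42 in controls and 6.11, 6.19 and 5.84 with miR-302, a fall of 0.63 on the log2 scale (SE 0.15, limma adjusted p = 0.03). Mir18b read 6.68, 7.0 and 6.98 in controls and 6.45, 6.40 and 6.35 with miR-302, a fall of 0.49 on the log2 scale (SE 0.10, limma adjusted p = 0.0221). Mir20b read 5.99, 6.40 and 6.22 in controls and 5.94, 5.81 and 5.67 with miR-302. Its difference of -0.40 (SE 0.12) was not called, at a limma adjusted p of 0.0785. Mir20b reached 6.0 only in the control mean, so its direction was open to the choice of members. Mir363 and Mir18b each lost the call in 4 of the 6 leave-one-out fits, among them those without miR-302 replicate 2 or replicate 3.

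Mir106b, of the third cluster, lies in an intron of Mcm7, which encodes a subunit of the replicative helicase. It read 8.31, 8.28 and 8.36 in controls and 7.76, 7.72 and 7.78 with miR-302. The fall of 0.56 on the log2 scale (SE 0.07, limma adjusted p = 0.00312) was several times the spread within either group. Mcm7 itself read 12.28, 12.21 and 12.22 in controls and 12.17, 12.01 and 12.01 with miR-302, and its difference of -0.17 (SE 0.08) was not called. The mature sequences of Mir17, Mir20a, Mir20b and Mir106b thus share a seed, while Mir106b alone of these rows was called. Whether their differences were unequal was not tested.

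**Figure D3:**
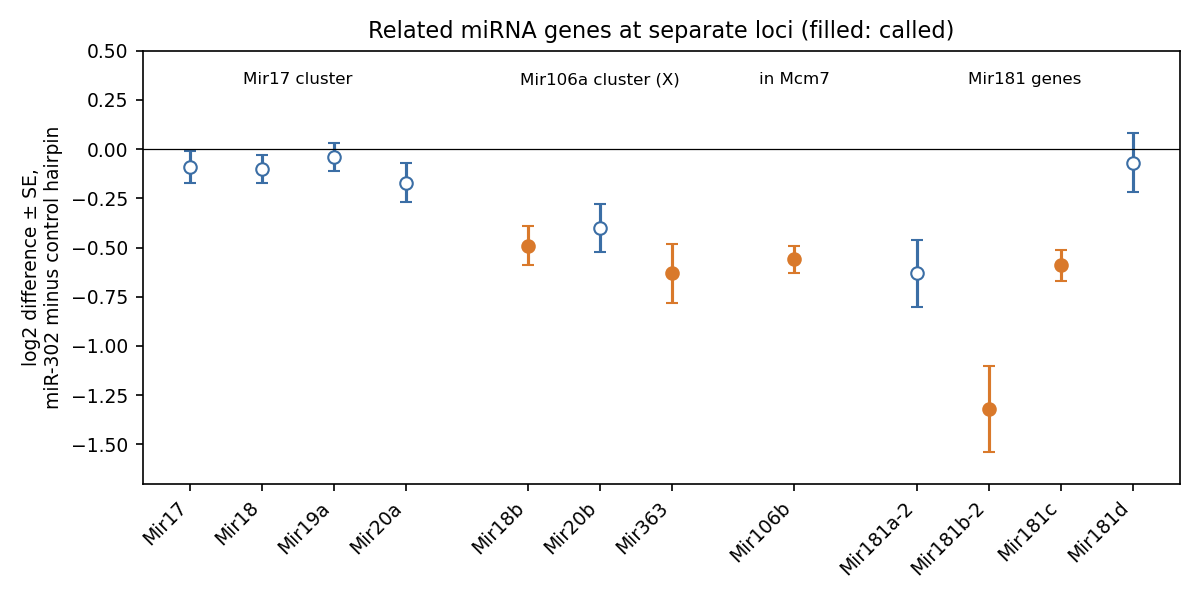
Log2 difference, miR-302 minus control hairpin, with limma's SE as bars (y axis) for related miRNA genes grouped by locus (x axis), filled where called. The 4 genes of the Mir17 cluster lie between -0.17 and -0.04, the 3 of the Mir106a cluster between -0.63 and -0.40, and Mir181b-2 is lowest at -1.32.

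Other seed groups and paralogous hairpins also held both called and uncalled rows. Mir130a, which has been linked to haematopoietic and vascular cells, read 9.44, 9.70 and 9.61 in controls and 9.29, 9.11 and 9.14 with miR-302, a fall of 0.40 on the log2 scale. Mir130a lost its call in 4 of the 6 leave-one-out fits. The members that share its seed, Mir130b at -0.20 and Mir301 at -0.30, were not called, although the groups of Mir301 were apart. Mir92b and Mir32, which share the seed of Mir363, were not called. Mir23b, on chromosome 13, read 8.73, 8.76 and 8.76 in controls and 8.14, 8.17 and 8.18 with miR-302. This fall of 0.59 on the log2 scale (SE 0.06, limma adjusted p = 0.00242) stood beside a replicate SD of 0.02 in each group. Mir23a and Mir27a, a paralogous cluster on chromosome 8, had differences of 0.31 and 0.40 and were not called, at limma adjusted p of 0.333 and 0.164. The hairpins of Mir23a and Mir23b are identical over 73.8% of their alignment. Mir15a, Mir16-1 and Mir16-2, known as restraints on the cell cycle, ranged from -0.04 to 0.01, and 0 of the 3 were called.

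Mir290a opens the miRNA cluster that is most abundant in mouse ESCs and shares 6 bases of its seed with miR-302b-3p. Its row read 12.43, 12.54 and 12.43 in controls and 12.51, 12.53 and 12.48 with miR-302. The groups overlapped, and the difference was 0.04 (SE 0.07). The other genes of the cluster that have rows share them with further genes and were not analysed here. Of the remaining rows with the highest values, Mir5099 (mean 13.59), Mir449b (12.41), Mir692-1 (11.67), Mir135b (9.72) and Mir15a (9.51) were not called, while Mir1949 (9.93) was higher and Mir181c (11.03), Mir5125 (9.75) and Mir130a (9.38) were lower. Mir449b lies within Cdc20b, whose strand was not compared and whose own row had a mean of 4.91. Among the 54 pairs of a member and its same-strand host gene, the host had the higher mean in 44. Values of different rows depend on their probes and do not rank the transcripts.

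Several members with well-known roles were not called; they were picked for mention after their values were seen. Mir34a, a direct p53 target, read 7.73, 7.74 and 7.75 in controls and 7.81, 7.53 and 7.43 with miR-302, a difference of -0.15 (SE 0.11). Mir200a and Mir200b, which restrain the epithelial-to-mesenchymal transition, had differences of -0.03 and 0.01. The sensory cluster Mir182, Mir183 and Mir96 ranged from -0.07 to 0.09. Mir29a, known for repressing collagen genes, read 6.82, 6.32 and 6.52 in controls and 5.30, 6.20 and 5.39 with miR-302. Its groups were apart, and its difference of -0.92 (SE 0.25) missed the threshold at a limma adjusted p of 0.0519. Mir29a reached 6.0 only in the control mean, so its direction was open to the choice of members.

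The imprinted region between Dlk1 and Dio3 on chromosome 12 holds the largest number of members, 30 of the 150. Its miRNAs are transcribed from the maternal chromosome, many in long noncoding RNAs such as Rian and Mirg. Their activity has been linked to full developmental potency in mouse pluripotent stem cells. Mir673, Mir493, Mir337, Mir540, Mir665, Mir3070a and Mir3070b lie within Rtl1, whose strand was not compared. Of the 30, 4 were lower with miR-302 (13.3%, against 9.25% of all genes), 0 were higher and 26 were not called, with a median difference of -0.03. Over the other 120 members, 20 were called (16.7%), with a median of -0.04. The region's rows had a mean per array of 7.50 to 7.58 in controls and 7.38 to 7.57 with miR-302.

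Within the region, 3 of the 4 called rows lay at the Dio3 end. Of the 6 members inside Mirg, 3 were lower (50%) and all 6 differences were negative, with a median of -0.32. Of the other 24 members, 1 was lower (4.17%), and the median was 0.00. Over all genes, 9.25% were lower. The split at Mirg was not set beforehand, and the difference between its sides was not tested. Mir453 read 8.11, 8.06 and 8.23 in controls and 7.25, 7.32 and 7.42 with miR-302, a fall of 0.80 on the log2 scale (SE 0.08). This had the smallest limma adjusted p of all members, 0.00212. Mir541 read 7.38, 7.32 and 7.38 in controls and 6.64, 6.97 and 7.0 with miR-302, a fall of 0.49 on the log2 scale. Mir409 read 8.0, 8.05 and 8.11 in controls and 7.08, 7.68 and 7.45 with miR-302. Its fall was 0.65 on the log2 scale, and a second row of the gene, at a mean of 4.74, had a difference of -0.44. Mir377, Mir154 and Mir496a, also inside Mirg, had differences of -0.15, -0.15 and -0.09 and were not called. Mir1193, outside Mirg, fell by 0.32 on the log2 scale. Mir541, Mir409 and Mir1193 lost the call in 4, 4 and 5 of the 6 leave-one-out fits. Mirg has no row of its own, and Rian, with a single-gene row, had a difference of 0.20 (SE 0.06) that was not called.

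**Figure D4:**
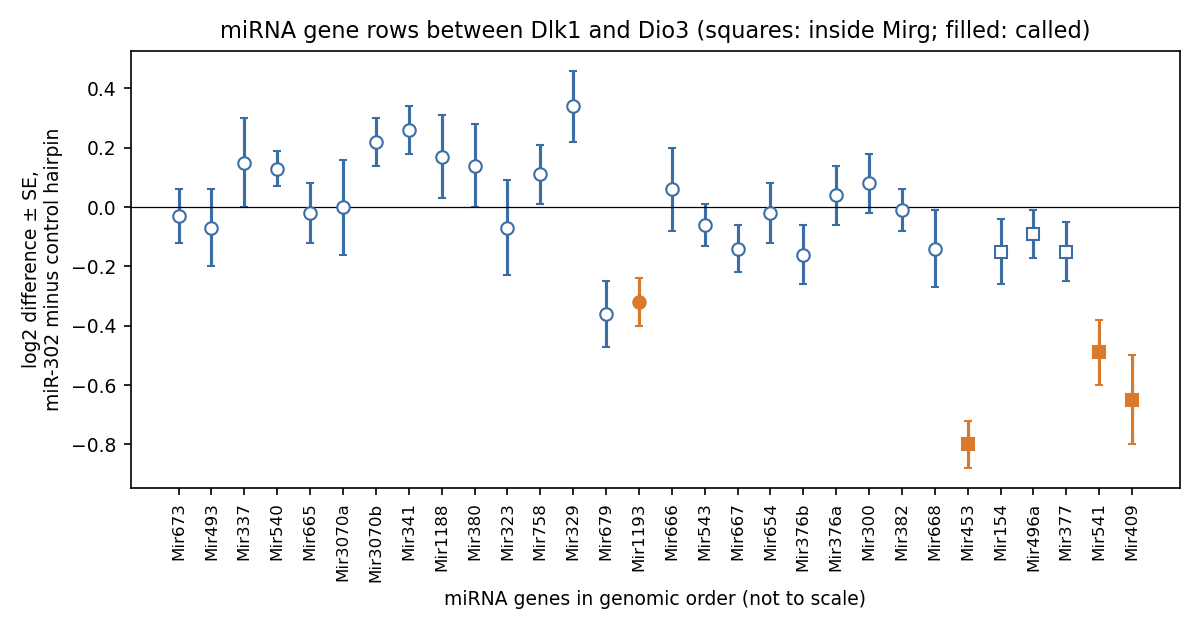
Log2 difference, miR-302 minus control hairpin, with limma's SE as bars (y axis) for the 30 members between Dlk1 and Dio3 in genomic order (x axis, not to scale), with squares inside Mirg and filled symbols where called. The called rows are Mir1193 at -0.32 and, inside Mirg, Mir453 at -0.80, Mir541 at -0.49 and Mir409 at -0.65.

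The host genes allow the rows to be set beside the transcript they may lie in. Of the 150 members, 72 lie within a gene on the same strand, and for 54 of them the host, 50 distinct genes, has a row of its own. Among the 50 hosts, whose median level was 8.90, 14 changed (28%), 6 higher and 8 lower. The share was 16.4% of all genes and 26.5% of genes at or above 6.0. The hosts were not chosen by level, and their lowest mean was 5.54. In 3 pairs both were called, in the same direction each time, in 6 only the miRNA gene row, in 11 only the host and in 34 neither. The sign agreed in 38 of the 54 pairs. Across the 54 pairs Pearson's r of the differences was 0.34 and Spearman's rho 0.53, and without Mir483 they were 0.57 and 0.56. These pairs share the same 6 arrays and in some cases a host, so the values are a description.

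The 3 concordant pairs were all lower with miR-302. The miRNA gene row of each reached 6.0 only in the control mean, so their direction was open to the choice of members, and with 6.0 required in each group 0 such pairs were left. Mir717 lies on the X chromosome in Gpc3, which encodes the growth-restraining proteoglycan glypican 3, and read 6.55, 6.55 and 6.61 in controls and 5.84, 5.42 and 5.20 with miR-302. Gpc3 read 10.04, 10.07 and 10.10 in controls and 9.39, 8.54 and 8.60 with miR-302. The falls were 1.08 (SE 0.16) and 1.23 (SE 0.22) on the log2 scale, with limma adjusted p of 0.00637 and 0.0125. Mir1981 read 6.98, 6.44 and 6.74 in controls and 6.02, 5.58 and 6.06 with miR-302, and it fell by 0.83 beside 0.88 for its host Mtarc2, a mitochondrial reductase gene. Mir5124a read 6.55, 6.62 and 6.41 in controls and 4.92, 5.94 and 5.63 with miR-302. It fell by 1.03 and its host Gcnt2, a glycosyltransferase gene, by 0.37. Mir5124a lost its call in 4 of the 6 leave-one-out fits. A further pair, Mir1949 and Snhg4, a small nucleolar RNA host gene whose strand was not compared, rose by 0.43 and 0.41.

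In the 6 pairs in which the miRNA gene row alone was called, the host differed by -0.19 to 0.01. Besides Mir106b in Mcm7, Mir23b in Aopep and Mir1963 in Ryr1, these were Mir677, Mir7-1 and Mir5125. Mir677 lies in Atp5b, which encodes a subunit of the mitochondrial ATP synthase, and read 7.12, 7.09 and 7.10 in controls and 6.68, 6.69 and 6.63 with miR-302. It fell by 0.44 on the log2 scale beside -0.15 for Atp5b. Mir7-1, in the RNA-binding protein gene Hnrnpk, read 8.02, 7.80 and 8.07 in controls and 7.43, 7.44 and 7.70 with miR-302. It fell by 0.44 beside 0.00 for its host. Mir5125, in the splicing factor gene Srrm2, read 10.04, 9.87 and 9.91 in controls and 9.44, 9.63 and 9.59 with miR-302. It fell by 0.39 beside 0.00 for Srrm2. Mir7-1 lost its call in 4 of the 6 leave-one-out fits, and Mir5125 in 5. No difference between a miRNA gene row and its host was tested.

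The reverse, a host that changed around a miRNA gene row that was not called, was seen in 11 pairs. The largest gap was at Igf2, the imprinted growth factor gene that holds Mir483 in an intron. Igf2 rose by 3.13 (SE 0.61), from 6.60 ± 0.12 to 9.73 ± 1.36 (SD, n = 3), with a limma adjusted p of 0.0168. Mir483 read 7.59, 7.11 and 7.39 in controls and 7.13, 7.19 and 7.35 with miR-302, with overlapping groups and a difference of -0.14 (SE 0.13). Rnf213, a ubiquitin ligase gene, fell by 0.81 beside 0.05 for Mir1932. Eng, which encodes the TGF-beta co-receptor endoglin, fell by 0.85 beside 0.39 for Mir1954. Tenm4 fell by 0.66, and Mir708 within it differed by -0.64 without a call (limma adjusted p = 0.17), its miR-302 arrays at 7.55, 6.47 and 6.56 against 7.48, 7.54 and 7.48 in controls.

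**Figure D5:**
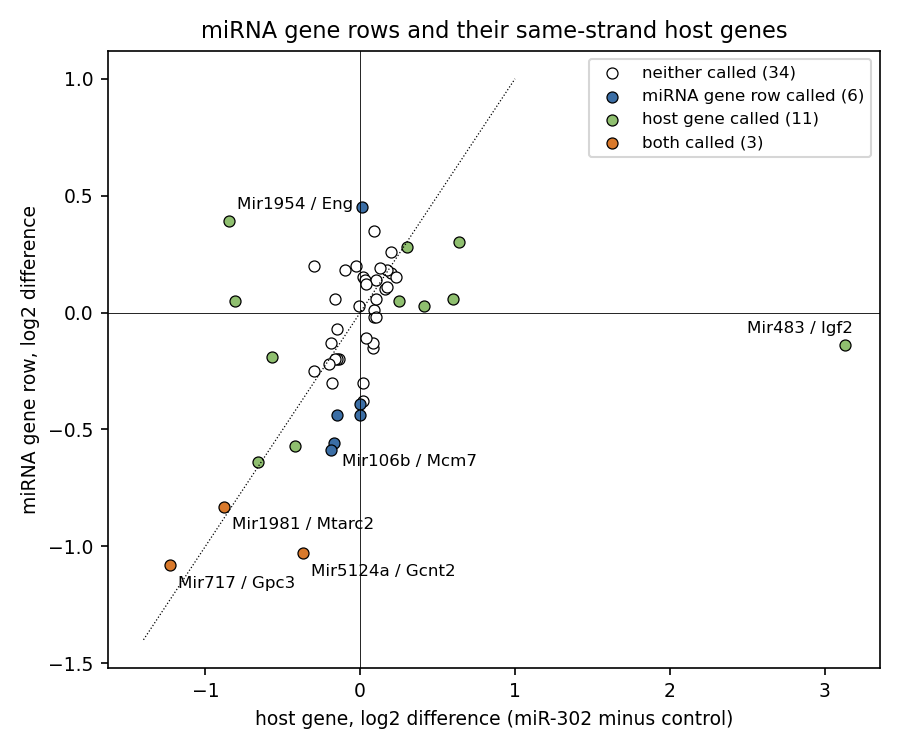
Log2 difference of the host gene (x axis) against that of the miRNA gene row inside it (y axis), miR-302 minus control hairpin, for the 54 same-strand pairs. Colours give which of the pair was called and the dotted line marks equal differences. Both fell at Mir717 and Gpc3, Mir1981 and Mtarc2, and Mir5124a and Gcnt2, and Mir483 and Igf2 lie farthest from the line.

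The remaining falls were Mir142 and Mir505. Mir142, a marker miRNA of blood cells, read 7.89, 8.19 and 8.08 in controls and 6.83, 7.41 and 7.22 with miR-302. The fall was 0.90 on the log2 scale (SE 0.16, 1.87-fold), with a limma adjusted p of 0.0122. Mir505 read 8.63, 8.93 and 8.57 in controls and 8.34, 7.77 and 7.63 with miR-302, a fall of 0.80 on the log2 scale. It kept its call in 1 of the 6 leave-one-out fits. Mir505, Mir409, Mir7-1 and Mir1193 do not meet the rule by which genes were named, and their mention was decided with their values in view.

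Some rows were apart between groups or widely spread without a call, and they too were picked for mention after their values were seen. Mir345 read 5.76, 5.87 and 6.10 in controls and 6.82, 6.19 and 6.23 with miR-302, and its difference of 0.50 (SE 0.18) had a limma adjusted p of 0.118. Mir692-1 read 11.63, 11.54 and 11.46 in controls and 11.84, 11.83 and 11.72 with miR-302, and its difference of 0.25 (SE 0.08) had a limma adjusted p of 0.073. Both had all miR-302 arrays above all controls. Mir345 reached 6.0 only in the miR-302 mean, so its direction was open to the choice of members. Mir101c, by contrast, read 7.08, 6.98 and 7.22 in controls and 6.96, 8.15 and 6.21 with miR-302, so that its mean difference of 0.01 stands beside an SD of 0.98 within the miR-302 group. The spread was larger at low levels: the median pooled SD was 0.185 for the 103 members under 8.0, of which 16 were called, and 0.095 for the 47 at or above it, of which 8 were called.

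Of the 24 called members, 8 were called in all 6 leave-one-out fits: Mir31, Mir181b-2, Mir717, Mir453, Mir181c, Mir23b, Mir106b and Mir677. The other 16 lost the call in at least 1 such fit. Mir142 lost it without control replicate 2 or 3, Mir674 without control replicate 3 or miR-302 replicate 3, and Mir1949 and Mir1981 in 3 fits each.

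Of 23 genes listed for miRNA processing and silencing, 19 had a single-gene row, of which 2 rose, 2 fell and 15 were not called. The called share was 21.1%, against 16.4% of all genes. Drosha differed by 0.15, Xpo5, the nuclear export receptor of hairpin precursors, by 0.08 and Dicer1 by -0.04, and none of these was called. Ddx5, a helicase that assists Drosha, fell by 0.37 and Tnrc6a, a silencing scaffold, by 0.70 on the log2 scale. Tarbp2, a Dicer partner, rose by 0.30 and Lin28a, which binds let-7 precursors, by 1.25.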

How the data were processed

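The authors deposited 1 table of RMA values for 3 control hairpin and 3 miR-302 samples, taken here as log2 expression, per the submitters' processing notes. The log base is not stated there, and base 2 is what RMA gives. RMA normalizes quantiles between arrays, which hides any change common to all genes. The RMA version and the genome build were not given in the sources used here. Detection calls were not used here, so low levels may be background. The number of arrays limits the precision.

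Of 33649 rows, the platform annotation gives 1 gene for 23521, several for 1814 and none for 8314. For a gene with several rows the row with the highest mean was used (4 members). All 22180 genes were fitted with limma 3.58.1 in R 4.3.3 (lmFit, eBayes, two-sided, no block), with Benjamini-Hochberg adjustment over all of them and a threshold of 0.05. A gene is called changed below it. The fit was checked on simulated data, where it recovered 40.6% of 1.5-fold, 87.7% of 2-fold and 95.2% of 4-fold changes. The simulation had 160 calls, against 3643 in the data, so these shares do not carry over directly. A row that was not called is not thereby shown to be unchanged. Host genes, gene order and chromosomes came from the RefSeq table of GRCm38.p6, which held all 150 members. Overlap on the same strand was known for 72, on the other strand for 8, and the strand was not compared for 18. Hairpins were aligned with Biopython 1.88. Python 3.11.15 and matplotlib 3.10.9 made the figures.

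The rule for named genes took up to 12 called members per direction with the smallest p, the 10 highest means, members of the Mir290, Mir17 and related clusters, any with a miR-302 seed, the 4 miRNA genes on either side of 6.0, and host genes of these. The members and lists were chosen with earlier results of these data known.

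Alternatives were a replicate block, leaving out each array, a level filter, a trended robust prior, median centring, quantile normalization, mean rows, array weights, an unmoderated test, a fold change of at least 1.5 and other level thresholds.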

Additional observations from a re-analysis of the deposited data

How the results depend on the processing

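Of the 24 called members, 8 were called in all 6 leave-one-out fits. Leaving out each array gave 10 to 30 called members, 1728 to 5395 called genes in all and 4 to 17 called host genes, against 24, 3643 and 14 with all arrays. With the replicate number as a block the counts were 15, 2293 and 8, and Mir130a, Mir5125 and Mir1963 were among the calls lost. The block rests on sample numbers, and the labels do not say whether same-numbered samples are paired. Deviations of same-numbered samples correlated at 0.02, 0.02 and 0.01, which cannot settle whether they were paired. With an unmoderated test per gene the counts were 10, 2341 and 7. Mir31, Mir181b-2 and Mir142 were among the calls lost, at adjusted p of 0.0633, 0.0681 and 0.0679 in the unmoderated test. With a fold change of at least 1.5 the counts were 12, 1561 and 8. Array weights gave 5621 called genes, and an intensity trend with a robust prior gave 22 called host genes. Median centring gave 4 members higher and 22 lower, and quantile normalization 6 and 17.

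Leaving out 1 array at a time put the difference on both sides of 0 for 41 of the 150 members, 0 of them called. Among the members named by rule, 3 uncalled ones changed sign under some setting. Mir5099 was at -0.01 after quantile normalization and 0.00 to 0.07 when each array was left out. Mir15a was at -0.06 to 0.03 when each array was left out. Mir3070a was at -0.02 after centring, -0.02 after quantile normalization, -0.07 with array weights and -0.11 to 0.14 when each array was left out. The causes were not tested. A level threshold of 5.5 kept 178 rows with 28 called, 6.5 kept 109 with 19, and 6.0 in each group kept 137 with 20.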
